A study of Mus musculus with 59 samples.

Results

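CTCF sites that were lost and gained between Thy1+ cells and SSEA1- Thy1- cells were compared through the deposited control peak lists of these 2 sorted populations of reprogramming mouse cells. A Thy1+ site was called kept when it overlapped an SSEA1- Thy1- site by at least 1 bp and lost when it did not, and an SSEA1- Thy1- site with no Thy1+ site overlapping it was called gained. The lists held 52800 and 50890 sites, together 59530 sites, and rested on 4 of the 59 samples of the series. The series comprised 31 chromatin immunoprecipitation (ChIP-seq) samples and 28 input samples, and its 31 ChIP samples had 16 peak lists, 15 for CTCF and 1 for SMARCA5, a nucleosome-sliding ATPase.

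The cells were mouse embryonic fibroblasts of the OG2 kind, which carry a GFP reporter of Oct4, infected with viruses for the reprogramming factors Oct4, Sox2, Klf4 and c-Myc (OSKM). Both control groups also carried an shRNA against luciferase, and matching Ctcf shRNA groups were sorted in the same way. The Thy1+ samples were taken on days 3 and 9, the SSEA1- Thy1- samples on days 6 and 9, and each list stands for 2 samples, so stage and day are mixed. Which of the described OSKM vectors and which of the 2 described ChIP protocols served these samples is not given in the sources used here. With 1 list per group there was no replicate check, and Wilson 95% intervals, given in parentheses, cover counting error only. Every site is 400 bp wide and has a score of 0, so a site missing from a list may be bound in fewer cells or lie below the threshold of the peak caller, and these cannot be told apart.

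CTCF is a zinc-finger protein that recognises a long DNA motif, stops the loop-extruding cohesin ring and so sets the borders of chromatin loops. It sits mostly between genes and within introns, and a smaller part of its sites lies at gene starts. Thy1 is a surface protein of fibroblasts that reprogramming cells lose early, SSEA1 is a carbohydrate epitope that cells on the way to pluripotency gain afterwards, and SSEA1- Thy1- cells lie between these states. A peak list holds no expression, so the Thy1+ label could not be checked against Thy1 mRNA or protein, and Thy1 appears below as a locus.

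The labels of the day 3 Thy1+ samples contradict each other. By title one is control and the other Ctcf shRNA, their descriptions name each other's lists, and the source names call both control. The titles were followed here. With the Thy1+ Ctcf shRNA list (45291 sites) in place of the control list, 90.9% of sites were kept (90.6 to 91.1), 4136 were lost and 9730 gained. With the control and Ctcf shRNA lists of each population joined, which a crossed label cannot change, 84.5% were kept (84.2 to 84.8), 8549 were lost and 6680 gained.

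Most Thy1+ sites were kept. Of the 52800 sites 44160 were also in the SSEA1- Thy1- list (83.6%, 83.3 to 84.0), 8640 were lost (16.4%), and 6726 of the 50890 SSEA1- Thy1- sites were gained (13.2%). Shared sites were placed identically in 44148 cases, so positions had been harmonised between the lists in a way that is not stated. Few changes were shifts of a nearby site: 147 lost sites had an SSEA1- Thy1- site starting within 1 kb of their own start.

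The promoter stretches shown next are windows with and without the core letters of the CTCF motif, each the 250 bases upstream of a gene start, from RefSeq (GRCm38.p6, the mm10 build of the lists). The sites at the starts of Itgav, Tgfbr1 and Grem1 were lost, those at Cebpb, Cldn1 and Mdm2 were kept, and that at Krt8 was gained; the 3 kept ones were chosen after their values were seen, because they hold the core. Capitals mark the core of the CTCF motif on either strand, taken as a 12-base pattern that starts with CCA, ends with GGC and has AG between them, with 2 free bases on each side of the AG.
Itgav, lost, chr2:83724147-83724396, plus strand: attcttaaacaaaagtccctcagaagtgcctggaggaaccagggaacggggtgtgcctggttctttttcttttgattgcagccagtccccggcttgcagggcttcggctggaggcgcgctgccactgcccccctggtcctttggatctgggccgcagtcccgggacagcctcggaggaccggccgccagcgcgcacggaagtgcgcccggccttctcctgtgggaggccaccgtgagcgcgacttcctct
Tgfbr1, lost, chr4:47352972-47353221, plus strand: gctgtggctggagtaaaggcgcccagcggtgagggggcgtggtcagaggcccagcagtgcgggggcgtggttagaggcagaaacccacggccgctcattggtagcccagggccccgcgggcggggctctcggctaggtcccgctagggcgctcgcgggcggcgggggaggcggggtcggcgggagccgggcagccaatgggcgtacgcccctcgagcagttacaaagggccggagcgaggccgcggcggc
Grem1, lost, chr2:113758649-113758898, minus strand: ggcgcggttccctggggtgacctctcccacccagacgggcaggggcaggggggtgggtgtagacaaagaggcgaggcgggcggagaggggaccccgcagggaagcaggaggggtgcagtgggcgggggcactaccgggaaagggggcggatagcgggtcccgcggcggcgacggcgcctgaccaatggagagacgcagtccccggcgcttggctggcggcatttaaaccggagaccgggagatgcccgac
Cebpb, kept, chr2:167688665-167688914, plus strand: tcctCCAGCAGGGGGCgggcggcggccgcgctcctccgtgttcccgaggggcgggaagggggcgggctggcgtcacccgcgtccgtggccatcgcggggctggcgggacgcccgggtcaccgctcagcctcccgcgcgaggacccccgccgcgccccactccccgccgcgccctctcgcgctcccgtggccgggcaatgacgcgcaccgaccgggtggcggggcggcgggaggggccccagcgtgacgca
Cldn1, kept, chr16:26371840-26372089, minus strand: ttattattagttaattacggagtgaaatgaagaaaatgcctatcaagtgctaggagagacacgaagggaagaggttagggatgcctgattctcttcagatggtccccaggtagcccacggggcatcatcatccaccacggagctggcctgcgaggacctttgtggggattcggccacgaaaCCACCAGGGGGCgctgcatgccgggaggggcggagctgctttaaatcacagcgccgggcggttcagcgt
Mdm2, kept, chr10:117710759-117711008, minus strand: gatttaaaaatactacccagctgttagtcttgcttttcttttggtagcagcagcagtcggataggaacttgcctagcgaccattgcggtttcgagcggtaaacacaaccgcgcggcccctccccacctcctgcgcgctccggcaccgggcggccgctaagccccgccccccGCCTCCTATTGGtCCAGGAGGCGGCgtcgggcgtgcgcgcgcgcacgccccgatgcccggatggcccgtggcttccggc
Krt8, gained, chr15:102004343-102004592, minus strand: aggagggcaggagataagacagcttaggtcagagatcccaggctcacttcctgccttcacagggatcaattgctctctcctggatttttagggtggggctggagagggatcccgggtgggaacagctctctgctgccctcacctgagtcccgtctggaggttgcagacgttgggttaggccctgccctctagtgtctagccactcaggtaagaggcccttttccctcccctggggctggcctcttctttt

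Most kept promoters looked like the lost ones in this respect. Among the listed genes described below, 19 promoter windows held a kept site, and the 3 shown are those with the core letters; the other 16, Tgfb1, Snai1, Cebpa and Col6a2 among them, had none, nor did the 7 with a lost site. Over all promoters the core was missing from 85.6% of the 1191 windows with a kept site. Only exact matches were counted, in every class. A CTCF motif that departs from the pattern by 1 base is missed, so a window without the core letters may still hold a CTCF motif. Itgav encodes the integrin αV chain, Tgfbr1 the type I receptor of TGF-β, and Grem1 a secreted BMP antagonist; none of their windows holds the core letters, and the GC content of their 300-base windows (250 before to 50 after the start) was 67.3%, 74.7% and 70.7%. Cebpb (a bZIP transcription factor) and Cldn1 (a tight-junction protein) each have 1 match, which begins at base -246 and -69 from the start. Mdm2, the ubiquitin ligase of p53, has 2 matches that lie next to each other on opposite strands. Krt8, an epithelial keratin, has none.

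Loss was most frequent at gene starts. Among Thy1+ sites centred within 500 bp of a protein-coding start, 1703 of 3533 were lost (48.2%, 46.6 to 49.9), against 6673 of 47686 elsewhere (13.99%, 13.7 to 14.3). Put the other way, 20.3% of lost sites (19.5 to 21.2) lay within 500 bp of a start, 4.27% of kept sites (4.08 to 4.47) and 1.14% of gained sites (0.907 to 1.43). With the Thy1+ Ctcf shRNA list in place of the control list, as the contradictory day 3 labels allow, 25.4% of start sites (23.6 to 27.2) were lost, and 14.5% of lost (13.4 to 15.6) and 2.04% of gained sites (1.77 to 2.34) lay at starts. Starts on chromosome 18 were not used here, so these shares leave its sites out. The starts came from 17491 of 21883 protein-coding genes, so a site at the start of another gene could be counted as elsewhere. Where either end of the gene span was taken for every gene instead, 21.1% of lost and 6.13% of kept sites lay within 500 bp.

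The excess faded with distance and was gone beyond 2 kb. The lost share was 47.9% (46.0 to 49.9) of sites under 250 bp from a start, 48.9% (45.8 to 51.9) at 250 to 500 bp, 32.8% (30.1 to 35.5) at 500 to 1000 bp and 18.5% (16.7 to 20.5) at 1 to 2 kb. Beyond 2 kb it was level, from 13.2% to 13.7% in the 5 distance classes. Gained sites ran the opposite way, from 3.26% (2.44 to 4.35) under 250 bp to 14.01% (12.9 to 15.2) at 2 to 5 kb and 15.5% (14.9 to 16.2) over 100 kb. Median distances to the nearest start were 17.4 kb for lost, 30.0 kb for kept and 35.7 kb for gained sites.

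**Figure D1:**
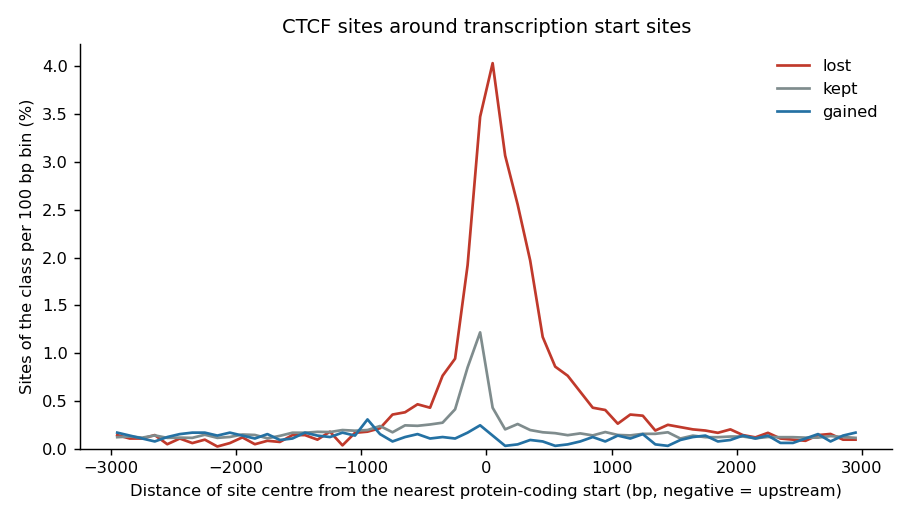
Share of each class of sites (vertical axis, % per 100 bp bin) by the distance of the site centre from the nearest protein-coding start (horizontal axis, bp, negative upstream). Lost sites peak just past the start at 4.03% per bin, kept sites just before it at 1.22%, and gained sites stay at or below 0.307% per bin.

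At starts, lost and kept sites also differed in where they sat. The median lost site near a start was centred 65 bp downstream of it (quartiles -67 and 219), and 37.1% of 1703 were upstream. The median kept site was centred at -75 bp (quartiles -178 and 36.8), and 70.5% of 1830 were upstream. The centres of lost sites thus tended to lie past the start and those of kept sites before it. Sites are 400 bp wide, so a site centred at either median covers the start itself.

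Promoters that lost their site were richer in GC and poorer in the CTCF core letters than promoters that kept it. Of 748 promoter windows of 300 bases that held the centre of a lost site and of no kept or gained one, 4.01% (2.82 to 5.67) contained the CTCF core on either strand, against 14.4% (12.5 to 16.5) of 1191 windows with a kept site, 1.53% (1.36 to 1.71) of windows with no site and 2.34% (2.15 to 2.55) of all 21237 windows. Their median GC content was 66.3%, against 61.7% with a kept site and 56.3% over all windows, and the median number of CpGs was 27, 22 and 13. Among windows with at least 60% GC, the core letters were in 4.15% with a lost site (2.83 to 6.06), 11.3% with a kept site (9.21 to 13.9) and 1.89% with none (1.59 to 2.23). The windows end 50 bases past the start and so take in less of the lost sites: 40.5% of lost (38.2 to 42.9) and 60.4% of kept sites near a start (58.1 to 62.6) were centred in one, and the site covered a median of 278 and 298 of the 300 bases. In windows with at least 250 bases inside the site, an alternative chosen after seeing the data, the core was in 3.46% of 520 with a lost site (2.20 to 5.41) and 15.01% of 966 with a kept site (12.9 to 17.4). The part of GC content in the loss was not tested.

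Letters of other factors were counted in the same windows. GGGCGG, the letters of SP and KLF factors, was in 80.8% of windows with a lost site (77.8 to 83.4), 62.4% with a kept site (59.6 to 65.1) and 46.2% of all, and within the GC-rich windows in 87.4% (84.5 to 89.8), 80.0% (76.9 to 82.8) and, with no site, 81.8% (80.8 to 82.7). CCGGAAG, the letters of ETS factors, was in 18.9% (16.2 to 21.8) of windows with a lost site, 19.3% (17.2 to 21.7) with a kept site and 11.6% (11.2 to 12.0) of all. Within the GC-rich windows it was in 19.6% (16.6 to 23.0), 21.1% (18.3 to 24.3) and, with no site, 16.8% (15.9 to 17.7). All were searched on both strands, and a match is a description of the letters and not a bound site. The last 3 patterns are given for windows with a lost site, with a kept site and for all windows, without regard to GC content. YY1 letters (AAGATGGC) were in 3.74%, 4.28% and 3.05%, NFY letters (ATTGG) in 30.7%, 32.1% and 38.2%, and CRE letters (TGACGTCA) in 3.07%, 2.18% and 2.24%.

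**Figure D2:**
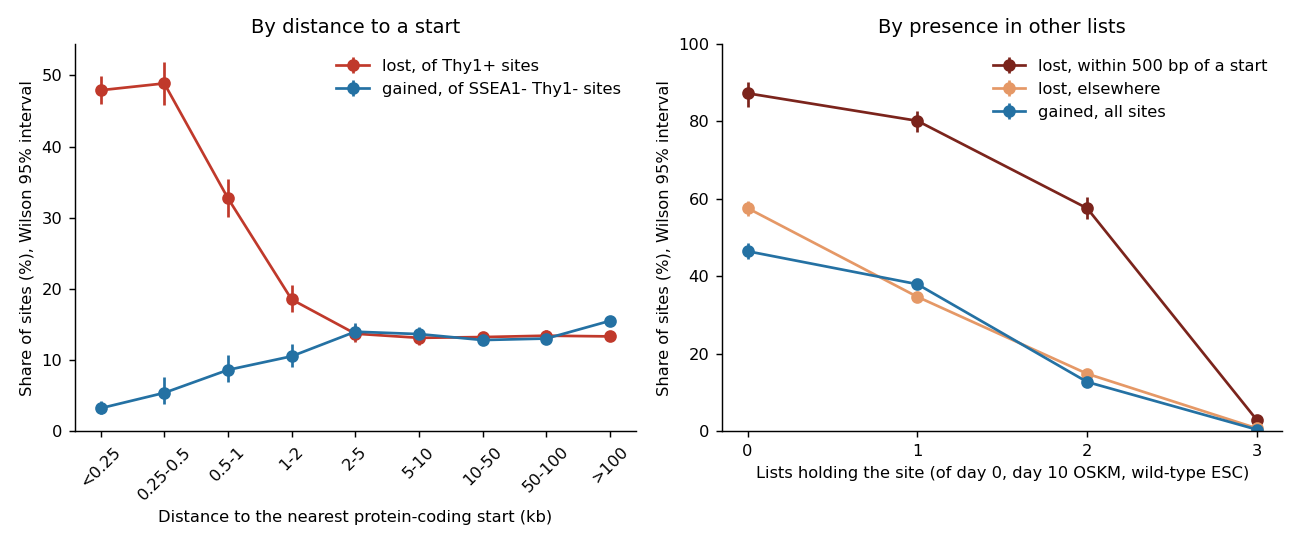
Left, share of Thy1+ sites lost and of SSEA1- Thy1- sites gained (vertical axis, %) by distance to the nearest protein-coding start (horizontal axis, kb). Right, the same shares by how many of 3 other lists held the site (day 0 control, day 10 OSKM, wild-type ESC); bars are Wilson 95% intervals, and near starts loss falls from 87.3% at 0 lists to 2.93% at 3.

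How widely a site was found in other lists went with its loss. Taking the day 0 control, day 10 OSKM and wild-type embryonic stem cell (ESC) lists, 61.6% (59.8 to 63.3) of the Thy1+ sites in none of them were lost, 38.4% (37.5 to 39.3) in 1, 18.8% (18.1 to 19.4) in 2 and 0.918% (0.809 to 1.04) in all 3. Sites at starts were lost more often than sites elsewhere within each of these classes. The shares at starts were 87.3%, 80.2%, 57.6% and 2.93%, and those elsewhere 57.7%, 34.8%, 14.9% and 0.804%. Gained shares fell in the same order, from 46.5% (44.4 to 48.6) through 38.0% and 12.8% to 0.482% (0.405 to 0.574). Sites held by all 3 lists hardly entered either class. They made up 26050 of the 52800 Thy1+ sites and 25933 of the 50890 SSEA1- Thy1- sites.

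The Ctcf shRNA lists of the same 2 populations took no part in the calls, and for the changed sites that could be followed in them they mostly showed the same change. In all, 2415 of the 8640 lost and 2006 of the 6726 gained sites repeated. Because the day 3 labels contradict each other, the 2 Thy1+ lists may not be separate control and Ctcf shRNA arms, here and in the next paragraph. Of 2993 lost sites that the Thy1+ Ctcf shRNA list held, 80.7% (79.2 to 82.1) were absent from the SSEA1- Thy1- Ctcf shRNA list, against 7.88% (7.62 to 8.15) of 39810 kept sites. Of 2930 gained sites that the SSEA1- Thy1- Ctcf shRNA list held, 68.5% (66.8 to 70.1) were absent from the Thy1+ Ctcf shRNA list, against 5.53% (5.31 to 5.76) of 38821 shared sites. A large part could not be followed, since 5206 lost sites (60.3%) and 3372 gained sites (50.1%) were in neither Ctcf shRNA list. The Ctcf shRNA lists alone gave 15.2% lost (14.9 to 15.6) and 13.3% gained (13.0 to 13.6).

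Loss at starts recurred under Ctcf shRNA. Among the 2415 sites lost under both shRNAs, that is, in both Thy1+ lists and in neither SSEA1- Thy1- list, 18.3% (16.8 to 19.9) lay within 500 bp of a start, and among the 2006 gained under both, 0.358% (0.174 to 0.738). In the Ctcf shRNA lists alone the shares were 12.7% of lost (11.9 to 13.5), 3.87% of kept (3.68 to 4.07) and 1.41% of gained sites (1.14 to 1.75). The Thy1+ control list had the largest share of start sites among the 8 lists of sorted cells, 6.90% (6.68 to 7.12), with 5.22% in the Thy1+ Ctcf shRNA list, 3.86% and 3.54% in the SSEA1- Thy1- lists and 3.31% in the SSEA1+ control list. Outside the sorted cells the share was 6.82% (6.58 to 7.06) in the day 10 OSKM list and 7.97% (7.74 to 8.21) with added Ctcf. It was 4.38% in the day 0 control list and 5.465% in the wild-type ESC list. A high share was thus not particular to the Thy1+ control list. The populations, the days and the calling of each list cannot be told apart in these shares.

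Elsewhere in the series, lost and gained sites were seldom day 0 sites and were mostly ESC sites. The day 0 control list held 5.88% of lost (5.40 to 6.40), 62.3% of kept (61.8 to 62.7) and 4.31% of gained sites (3.85 to 4.82); at 28838 sites it was also the shorter list. The wild-type ESC list, the longer at 83173 sites, held 74.9% (74.0 to 75.8), 95.8% (95.6 to 96.0) and 83.3% (82.4 to 84.2). The day 10 list with added Ctcf, the longer at 52252 sites against 43356 for OSKM alone, held more of every class. For lost sites the share was 31.9% (30.9 to 32.9) with OSKM alone and 50.3% (49.2 to 51.3) with added Ctcf. For kept sites it was 80.2% (79.8 to 80.6) and 86.5% (86.1 to 86.8), and for gained sites 24.4% (23.4 to 25.4) and 34.3% (33.2 to 35.4).

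**Figure D3:**
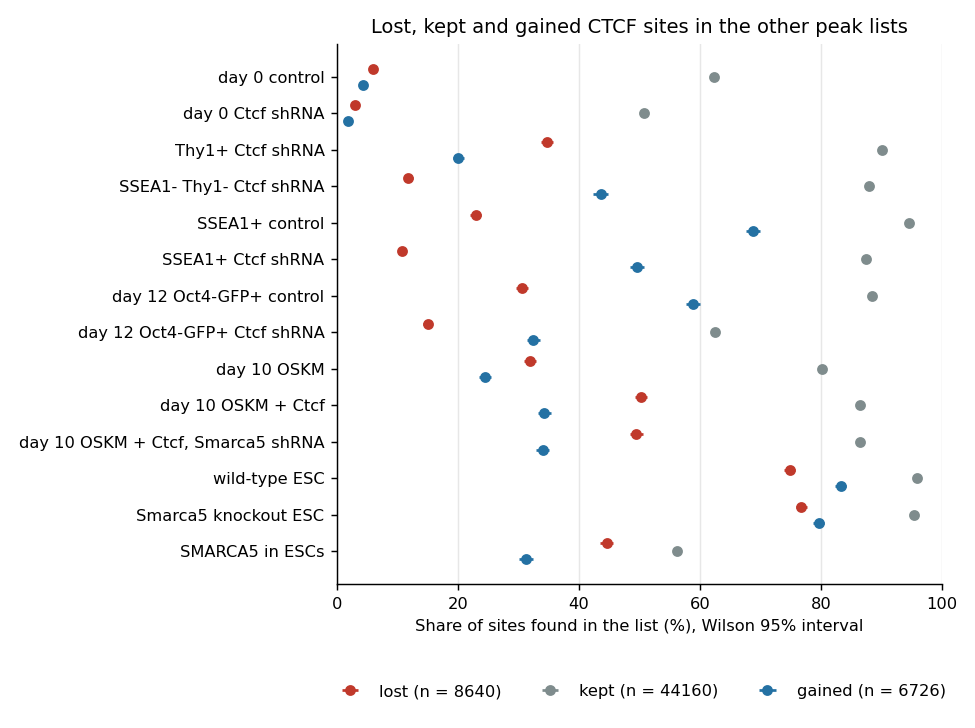
Share of lost, kept and gained sites (horizontal axis, %, with Wilson 95% intervals) that each other peak list held (vertical axis). Kept sites lie to the right throughout, lost sites exceed gained sites in the day 10 lists and the Thy1+ Ctcf shRNA list, and gained sites exceed lost sites in the SSEA1+ and day 12 lists.

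The SSEA1+ and day 12 control lists each held most of the gains and left out most of the losses. The SSEA1+ samples were taken on the same days as the SSEA1- Thy1- samples, so for them a shared day and a later state cannot be told apart. Of gained sites, 68.8% (67.7 to 69.9) were in the SSEA1+ control list and 58.9% (57.7 to 60.1) in that of day 12 Oct4-GFP+ cells, 46.7% (45.5 to 47.9) in both and 19.1% (18.1 to 20.0) in neither. Of lost sites, 58.6% (57.5 to 59.6) were in neither, 12.0% (11.4 to 12.7) in both and 18.5% (17.7 to 19.3) in the day 12 list without the SSEA1+ list. At starts the lost sites were even rarer in the SSEA1+ control list: 5.81% (4.80 to 7.03) of 1703 were in that list, while 27.5% (25.5 to 29.7) were in the day 12 list, and 69.8% (67.6 to 72.0) were in neither. Kept sites, too, were rarer there at starts (83.0%) than elsewhere (95.1%). Most lost start sites were nevertheless ESC sites. The wild-type ESC list held 75.5% of them (73.4 to 77.4), against 74.75% of lost sites elsewhere. The day 10 OSKM list held 44.3% (42.0 to 46.7), against 28.7%. A total of 566 lost and 185 gained sites were in none of the other 13 CTCF lists.

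Sites at starts were common in the SMARCA5 list of ESCs. It held 79.8% (77.8 to 81.6) of lost sites at starts and 87.5% (85.9 to 88.9) of kept sites at starts, against 35.6% (34.4 to 36.7) of lost and 54.9% (54.4 to 55.3) of kept sites elsewhere. Of gained sites it held 31.2% (30.1 to 32.3). SMARCA5 was mapped there through an overexpressed tagged protein in ESCs, and 11.6% of its own sites lay within 500 bp of a start.

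The 2 next steps in the order of the sorted populations, which share lists with this one and with each other, are given beside it. From SSEA1- Thy1- to SSEA1+ control cells 8.84% of sites were lost (8.60 to 9.09) and from SSEA1+ to day 12 cells 15.4% (15.1 to 15.8). Of the lost sites of these steps 8.27% (7.48 to 9.12) and 2.44% (2.12 to 2.81) lay at starts, against 20.3% in the step from Thy1+ cells. Of the gained sites 2.33% (1.96 to 2.76) and 10.0% (9.39 to 10.6) did, against 1.14%.

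For gene groups, sites were assigned to a gene when inside its span or within 10 kb. Over all protein-coding genes, 18.2% of 38327 Thy1+ sites were lost and 12.5% of 35815 SSEA1- Thy1- sites were gained, and the groups below are read against these shares. Counted by gene, 31.3% of all 21883 genes had a lost site and 19.4% a gained one, or 41.5% of those with a Thy1+ site and 26.5% of those with an SSEA1- Thy1- site. The 10 lists hold 270 genes and were chosen with earlier results of these data known. Cdh1 and Epcam are in both the surface and the epithelial list, and Cdkn1c is in both the barrier and the imprinted list. These groups therefore share sites. Groups hold 29 to 117 sites, so their intervals are wide, and nothing is called particular to a group.

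Surface markers of the sort and of reprogramming had 54 Thy1+ sites, of which 16 were lost (29.6%, 19.1 to 42.8), and 6 of 44 SSEA1- Thy1- sites were gained (13.6%, 6.40 to 26.7). Without the sites at starts and those on chromosome 18, where no starts were used, 11 of 44 were lost (14.6 to 39.4). This interval reaches below the 15.02% over all genes counted in the same way. Of the 54 sites 4 lay at starts, 3 of them lost. The 6 sites at Pdgfrb, 2 of them lost, were left out for their chromosome. Both sites at Thy1 itself were lost, leaving 0. One spans the low-coordinate end of the gene (chr9:44043243-44043642, mm10) and the other lies inside it (chr9:44044371-44044770). No start of Thy1 was among those used here, so both were counted as away from starts, although the first overlaps an end of the gene. Neither was in the Thy1+ Ctcf shRNA list, so their loss could not be followed under Ctcf shRNA, and the second was again in the day 12 control and ESC lists. Kit, the receptor of stem cell factor, lost its 1 site (chr5:75575588-75575987, centred 797 bp past the start), which was in both Thy1+ lists and also in the SSEA1+ and day 12 control lists.

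Some surface genes of mesenchymal cells lost sites and others kept all of theirs. Pdgfra, a receptor of platelet-derived growth factor, kept 6 of 6, the adhesion molecule Icam1 4 of 4, Cd34 3 of 3 and Ly6a, which encodes Sca-1, its 1; these genes were chosen after their values were seen. Itgav lost 2 of 3, one centred at -24 bp of the start shown above (chr2:83724173-83724572) and one 5537 bp outside the gene that was lost under both shRNAs. Pdgfrb, the paralogue of Pdgfra, lost 2 of 6, and Cd44, a hyaluronan receptor, lost 1 of 2. Start sites were lost at Nt5e, the ectonucleotidase CD73 (centred at 152 bp), and at Mme, the peptidase CD10 (268 bp), and Nt5e gained a site inside the gene under both shRNAs. Cd9, a tetraspanin, lost 3 of 6, Itga6, the integrin α6 chain, 1 of 5, and Pecam1 and Epcam, adhesion molecules, 1 of 2 each. Eng, the TGF-β co-receptor endoglin, gained 1 site beside 2 kept ones.

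Cdh1, the E-cadherin gene whose activation marks the change to an epithelial state, gained most among them. It kept 3 sites and gained 4, all inside the gene, at chr8:106631969-106632368, chr8:106644957-106645356, chr8:106656941-106657340 and chr8:106657782-106658181. The SSEA1+ and day 12 control lists held the first 3 of them, and the third was gained under both shRNAs. The wild-type ESC list held the other 3 and lacked the third.

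**Figure D4:**
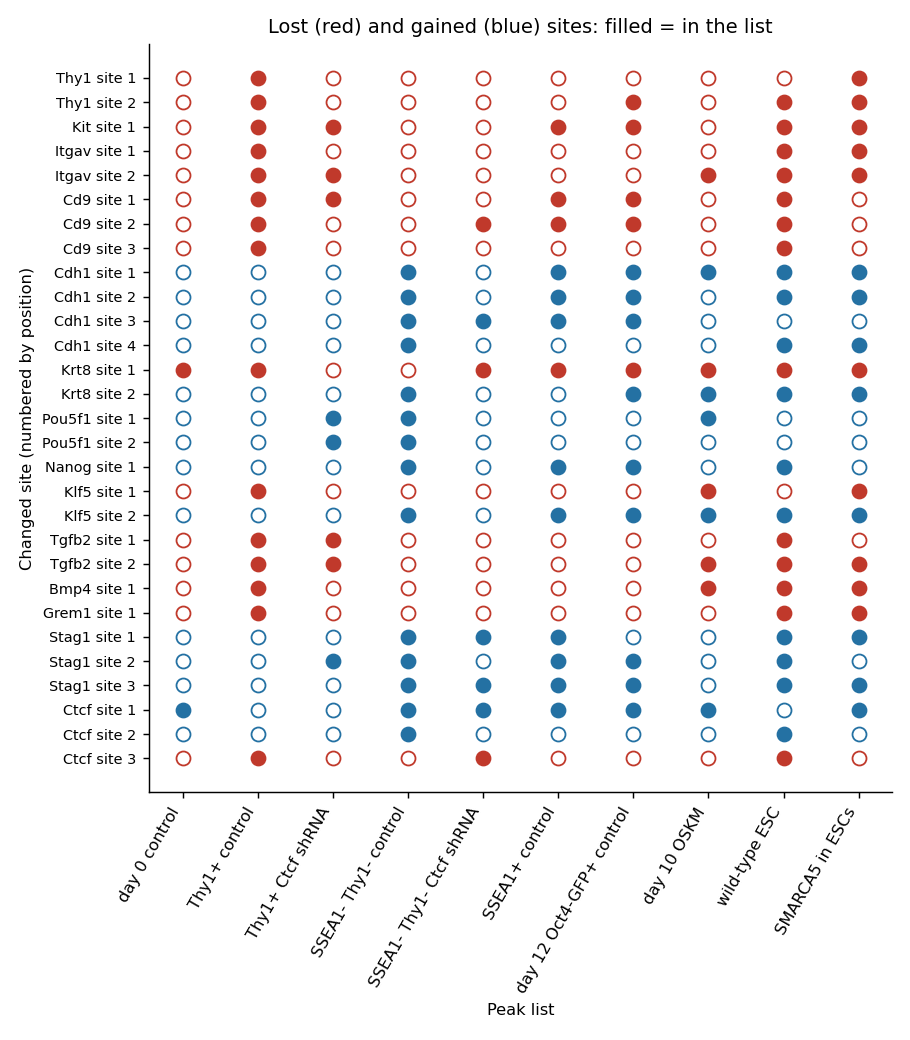
Lost sites (red) and gained sites (blue) near 14 genes, 1 row per site, numbered by position within each gene; a filled circle means that the peak list named under the column holds the site. The Thy1+ control column is filled for every lost site and the SSEA1- Thy1- control column for every gained one by definition, and the other 8 columns were not used to call them.

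Epithelial genes had the largest gained share among the 10 groups. Of their 56 SSEA1- Thy1- sites 15 were gained (26.8%, 17.0 to 39.6), 7 of them under both shRNAs, and 9 of 50 Thy1+ sites were lost (18.0%, 9.77 to 30.8). The gained sites were near 7 of the 22 genes, against 19.4% of all genes and 26.5% of those with an SSEA1- Thy1- site. The 4 gained at Cdh1 are among these 15 and also among the 6 of the surface markers. Ocln, the tight-junction protein occludin, gained 1 site under both shRNAs. Krt8 lost its 1 site, 8066 bp outside the gene, and gained 1 centred at -123 bp from its start. Neither change recurred under Ctcf shRNA. There the lost site ran the other way, absent from the Thy1+ list and present in the SSEA1- Thy1- list, and the gained site was in neither. The day 0, SSEA1+ and day 12 control lists also held the lost site. Dsp (desmoplakin) gained 3 sites and Grhl2, an epithelial transcription factor, gained 2; both were chosen after their values were seen. Cldn6, a claudin of early embryonic epithelia, lost its 1 site.

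Fibroblast and mesenchymal genes had few gains. Of 63 SSEA1- Thy1- sites 2 were gained (3.17%, 0.875 to 10.9), both at Col1a1, the main type I collagen chain, and 18 of 79 Thy1+ sites were lost (22.8%, 14.9 to 33.2), 8 of them under both shRNAs. Neither Col1a1 gain recurred under Ctcf shRNA. The one inside the gene was also in the day 0 control and Thy1+ Ctcf shRNA lists. The one outside it was in neither Ctcf shRNA list of the 2 populations. Lost sites were near 11 of the 30 genes, against 31.3% of all genes and 41.5% of those with a Thy1+ site. Col5a1, a type V collagen chain, lost 3 of 10 sites, 2 of them centred at -554 and 913 bp of its start and lost under both shRNAs. Fn1, the matrix protein fibronectin, lost 2 of 3, one of them spanning the high-coordinate end of the gene. No start of Fn1 was among those used, so that site was counted as away from starts. Col5a2 and Fbn1 (fibrillin) lost 1 of 4 each.

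TGF-β and BMP pathway genes, inhibitors of these signals among them, lost 28 of 117 sites (23.9%, 17.1 to 32.4) and gained 6 of 95 (6.32%, 2.93 to 13.1). At least 1 site was lost near 19 of the 27 genes and gained near 5, against 31.3% and 19.4% of all genes and 41.5% and 26.5% of those with a site; the 27 genes shared 117 Thy1+ sites, and all 27 had at least 1. Among ligands, Tgfb2 lost 2 of 4 sites, both under both shRNAs and one centred 472 bp past the start, Tgfb1 lost 1 of 5 and Bmp4 lost its 1 site. Among receptors, Tgfbr1 lost 1 of 4 (centred at -54 bp, chr4:47352968-47353367), Tgfbr2 lost 2 of 6 (one at 211 bp), Bmpr1a lost 2 of 10 and gained 1, and Acvr1 lost 1 of 7 and gained 2. Among the intracellular members, Smad2, which carries the TGF-β signal, lost 1 of 3 and gained 1, and Smad7, which blocks it, lost 2 of 3, both under both shRNAs, and gained 1. Grem1 lost its 1 site, centred at -21 bp.

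Transcription factors of somatic cells lost 24 of 100 sites (24.0%, 16.7 to 33.2) and gained 10 of 86 (11.6%, 6.44 to 20.1). The AP-1 genes Fos and Fosl2 each lost 1 of 2 sites and gained 1; the lost Fos site was centred 220 bp past the start and the gained one 4436 bp past it. Fosb and Atf3 gained 1 site each beside 4 and 2 kept ones. Batf, another bZIP factor, lost 1 of 2, and Runx1, a regulator of blood and mesenchymal genes, lost 2 of 8.

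Pluripotency genes stood near the background in both directions, with 14 of 78 sites lost (17.9%, 11.0 to 27.9) and 8 of 72 gained (11.1%, 5.74 to 20.4), of which 0 were gained under both shRNAs. Pou5f1, which encodes Oct4, kept 2 sites and gained 2, centred at -7024 and -6151 bp from the start; both were also in the Thy1+ Ctcf shRNA list and in neither the ESC nor the day 12 control list. Nanog gained 1 site inside the gene (chr6:122709010-122709409), which the SSEA1+, day 12 and ESC lists held. Nr0b1, a nuclear receptor of the ESC network, had 0 sites and gained 1, and Sall4, a zinc-finger factor, gained 1. Klf5, a Krüppel-like factor, lost its 1 site and gained another inside the gene, Tbx3, a T-box factor, lost 3 of 5, Myc, itself a reprogramming factor, 2 of 4 and Tet1, a 5-methylcytosine oxidase, 2 of 7 with 1 gain. Starts of Klf5, Tbx3 and Myc were not among those used, so their sites were counted as away from starts.

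Genes known as barriers to reprogramming lost 13 of 70 sites (18.6%, 11.2 to 29.2) and gained 5 of 62 (8.06%, 3.49 to 17.5). Cdkn1b, the cell cycle inhibitor p27, lost its 1 site, 862 bp past the start. Cdkn2c and Trp53, which encodes p53, gained 1 site each beside 1 kept one. Chaf1a and Chaf1b, subunits of the histone chaperone CAF-1, each lost 1 and gained 1, and Rb1, the retinoblastoma gene, lost 1 of 6, at the start of Lpar6, which lies within it.

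Genes for CTCF, cohesin and ISWI remodellers lost 11 of 76 sites and gained 11 of 76 (14.5% each, 8.28 to 24.1). Stag1, a cohesin subunit, kept 5 sites and gained 3 inside the gene, 2 of them under both shRNAs. Ctcf itself lost 1 of 3 and gained 2, one centred 552 bp past its start and gained under both shRNAs. Smc3, a core cohesin subunit, and Nipbl, the cohesin loader, each lost 1 and gained 1, Smc1a gained 1, and Ctcfl, the germline paralogue of Ctcf, lost 1 of 5.

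Hox genes changed little, with 2 of 30 sites lost (6.67%, 1.85 to 21.3) and 1 of 29 gained (3.45%, 0.611 to 17.2). One lost site lies between Hoxa9 and Hoxa10, the other 6043 bp outside Hoxd13, and the gained one lies inside Hoxb3. Imprinted genes lost 14 of 66 (21.2%, 13.1 to 32.5) and gained 9 of 61 (14.8%, 7.96 to 25.7). H19 is a maternally expressed RNA whose neighbourhood holds a CTCF-bound imprinting control region. It lost 1 of 2 sites, 3583 bp outside its span (chr7:142581729-142582128) and under both shRNAs. The SSEA1+ and day 12 control lists and the day 10 OSKM and wild-type ESC lists held this site, and the day 0 control list did not. Whether it is part of that region was not tested. Igf2 lost 1 of 3, Dlk1 both of its 2, Igf2r 1 of 2 and Kcnq1 2 of 7 with 1 gain, while Peg3 and Zim1 gained the same site and Usp29 gained 1 and lost 1.

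**Figure D5:**
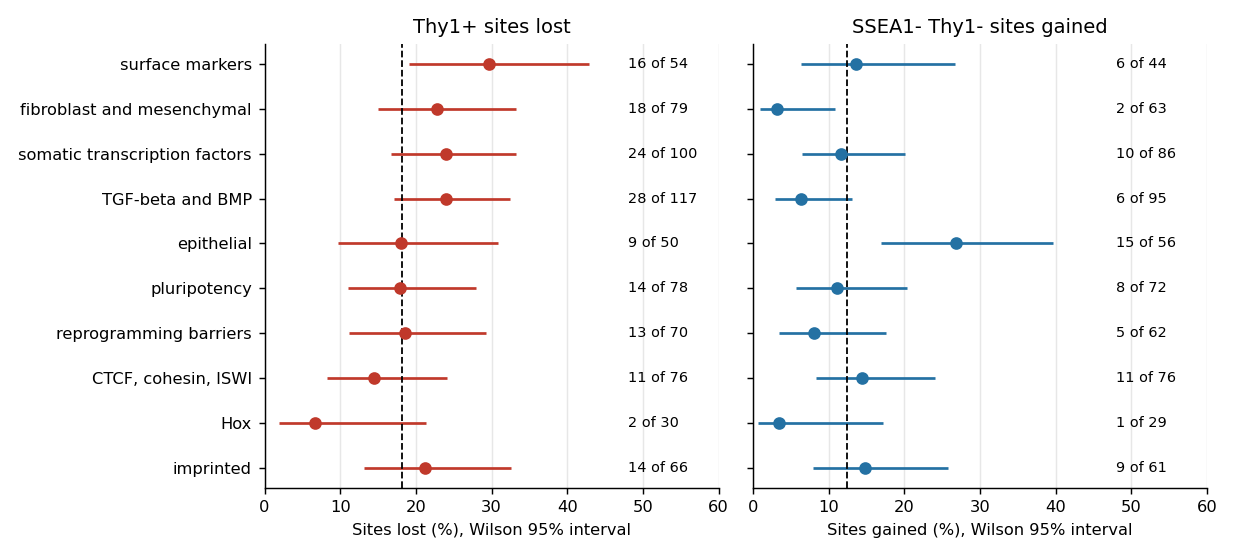
Share of Thy1+ sites lost (left) and of SSEA1- Thy1- sites gained (right) within 10 kb of the genes of 10 lists (horizontal axes, %, Wilson 95% intervals, counts at the right edge). The dashed lines are the shares over all protein-coding genes, 18.2% and 12.5%. The lost interval of surface markers lies above its line (not so without start sites and chromosome 18, 14.6 to 39.4 against 15.02%). The gained interval of epithelial genes lies above its line and that of fibroblast and mesenchymal genes below it.

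Across all protein-coding genes, 16496 of 21883 had a Thy1+ site within 10 kb and 16059 an SSEA1- Thy1- site. A lost site was near 6841 genes and a gained one near 4248, while 814 genes went from at least 1 site to 0 and 377 from 0 to at least 1. The gene with the most lost sites was Dab2ip, a Ras GTPase-activating protein, with 8 of 12, of which 1 was lost under both shRNAs. Klf13, a Krüppel-like transcription factor, lost 6 of 8 over a span of 52.6 kb, one of them 393 bp past its start. Agps, an enzyme of ether lipid synthesis, lost 5 of 7.

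The other 7 genes with the most lost sites were long or site-rich. Rbms3 lost 7 of 27, and Gse1 and Pde4d, a cAMP phosphodiesterase, 6 of 27 each. Rora, a nuclear receptor, lost 6 of 30, Ptprg, a receptor phosphatase, 6 of 21, Mthfd1l, a mitochondrial folate enzyme, 6 of 15, and Zmiz1 6 of 12. Among the 10 with the most gained sites, Camta1 gained 7 of 33, the neuronal splicing regulator Rbfox1 7 of 24 and the adhesion molecule Sdk1 7 of 22. Gm37013, Gm38666 and Gm38667 overlap each other on chromosome 18 and gained the same 7 sites. Dpp6 gained 6 of 17, Exoc4, a subunit of the exocyst, 6 of 12, Fstl4 6 of 14 and Sfi1 6 of 16.

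Neither class was restricted to a few regions. Among chromosomes with over 1000 sites, the lost share ran from 12.4% on X (10.8 to 14.2) to 17.9% on 13 (16.3 to 19.6), and the gained share from 11.8% on 17 (10.5 to 13.2) to 14.6% on 13 (13.2 to 16.3). Away from starts the lost share on X was 10.6% (9.05 to 12.3). Of 2533 windows of 1 Mb with a site, 2040 had a lost and 2031 a gained one, and 1747 had both. Windows with the most lost sites were 120 to 121 Mb on chromosome 11 (25 of 80), 80 to 81 Mb on chromosome 10 (24 of 88), 108 to 109 Mb on chromosome 9 (21 of 62), and 32 to 33 Mb (20 of 78) and 30 to 31 Mb (18 of 70) on chromosome 2. In these windows 4 to 6 of the lost sites lay at starts. Windows with the most gained sites were 132 to 133 Mb on chromosome 4 (19 of 71), 76 to 77 Mb (15 of 71) and 100 to 101 Mb (14 of 59) on chromosome 15, 90 to 91 Mb on chromosome 16 (14 of 39) and 3 to 4 Mb on chromosome 11 (13 of 56).

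Changed sites lay about as close to kept sites as kept sites did to each other. The median distance to the nearest kept site was 12.1 kb for lost, 13.3 kb for gained and 12.0 kb for kept sites. Within 10 kb of a kept site lay 42.7% of lost (41.7 to 43.7), 41.5% of gained (40.3 to 42.6) and 43.3% of kept sites (42.9 to 43.8). The median distance from a lost site to the next lost one was 54.4 kb and from a gained site to the next gained one 87.6 kb.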

How the data were processed

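The submitters' processing notes name Bowtie2, MACS2, HOMER and bedtools among the tools, then SAMtools, Picard, deepTools, FastQC and Trim Galore, and the build mm10 (GRCm38). Thresholds, versions, depth and pooling were not given in the sources used here. The deposited lists are intervals whose score is 0 in every line, so neither rank nor strength could be used. Sites were grouped by sample title, and overlaps, Wilson intervals and distances were computed with Python 3.11.15, NumPy 2.4.6, pandas 2.3.3 and SciPy 1.17.1 and drawn with matplotlib 3.10.9; the overlap calls were tested on simulated data. With 1 list per group no test was made. Genes and starts came from RefSeq tables of GRCm38.p6, and a site was at a start when its centre lay within 500 bp. Members and gene lists were chosen with earlier results of these data known.

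Genes named are surface genes with a changed site, per list up to 4 members in list order with a lost and 4 with a gained site, members going to or from 0 sites, the 10 genes and the 5 windows of 1 Mb with the most lost or gained sites; others are stated as chosen after their values were seen. Alternatives were a reciprocal overlap of 50%, identical positions, the Thy1+ Ctcf shRNA list, joined lists, autosomes, other distances to starts and gene spans, sites away from starts, and promoter windows lying mostly inside a site. Input samples were not used here, and 1 gene that the naming rule selects is not reported here by name.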

Additional observations from a re-analysis of the deposited data

How the results depend on the processing

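Each group had 1 list that pools its samples, so leaving out a replicate could not be run, and depth is unknown. No paired analysis was possible because each group had 1 deposited list and no list per sample. The kept share, the lost and gained counts and their shares at starts held under a reciprocal overlap of 50%, and the first 3 also with identical positions and on autosomes. With the Thy1+ Ctcf shRNA list in place of the control list the kept share was 90.9%, lost sites numbered 4136, and sites at starts made up 14.5% of lost and 2.04% of gained sites, while 25.4% of start sites were lost; with joined lists the kept share was 84.5%. Further settings for starts were chosen after seeing the data. Within 250 bp of a start lay 14.4% of lost and 0.676% of gained sites, and within 1000 bp 24.99% and 2.30%, with 44.3% of the Thy1+ sites in that distance lost. Taking either end of every gene span, 40.2% of the sites within 500 bp were lost, and 2.28% of gained sites lay there. Of the sites lost or gained under both shRNAs 18.3% and 0.358% lay at starts. A reciprocal overlap of 50% lowered the share of lost sites held by lists with other positions, to 30.7% for day 10 OSKM, 47.8% with added Ctcf, 47.3% with Smarca5 shRNA too, 73.4% for wild-type ESCs, 75.02% for Smarca5 knockout ESCs and 42.6% for SMARCA5. All 60 gene list shares with spans of 2.5 or 50 kb, or without start sites and chromosome 18, lay within the intervals of the 20 shares given.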
